A study of Heliocidaris erythrogramma with 7 samples.

Results

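At 12 hours post-fertilization (hpf), 577 of the 4706 cells kept from the *Heliocidaris erythrogramma* (*He*) library carried transcripts of both *foxa* and *hox11/13b* and none of *scl*. These cells, called members here, were selected on their raw counts of unique molecular identifiers (UMIs), with at least 1 UMI of *foxa*, at least 1 of *hox11/13b* and no *scl* UMI. They made up 12.3% of the 12 hpf cells, with an exact 95% interval of 11.3% to 13.2%, and were taken from 23156 kept cells in 7 libraries at 6, 9, 12, 16, 20, 24 and 30 hpf. *He* is a sea urchin whose non-feeding larva develops from a large, yolk-rich egg. Each library came from dissociated, methanol-fixed embryos or larvae, and all 7 carry the same tissue label of larvae. With 1 library per time point and no replicates, no test was made, and every interval given here is an exact 95% interval that covers counting error only.

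In sea urchins, the vegetal cells of the early embryo form an endomesoderm, which later separates into endoderm, the source of the gut, and mesoderm, the source of pigment, blood-like and coelomic cells. Wnt signalling through β-catenin starts this programme, Delta-Notch signalling sends neighbouring cells into mesoderm, and transcription factors such as *blimp1*, *bra*, *foxa* and *gatae* then hold the endoderm state. *foxa* encodes a forkhead factor of the gut, *hox11/13b* a posterior homeodomain factor of the vegetal endoderm, and *scl* a bHLH factor of blood and mesoderm lineages in many animals. These roles were worked out mainly in planktotrophic sea urchins such as *Strongylocentrotus purpuratus* and *Lytechinus variegatus*.

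The members held 994229 UMIs in all, with a median of 1587 UMIs and 929 genes per cell. The 4129 other 12 hpf cells had a median of 1671 UMIs and the same median of 929 genes, so depth differed little between both groups. Levels below are the UMIs of a gene summed over a group of cells per 1000000 UMIs of that group (CPM), and a ratio is the level in the first group divided by that in the second. Across the 7 libraries, median depth ranged from 1273 to 2581 UMIs per cell. Of the 12 hpf barcodes, 26 also occurred in another library, 3 of them among the members.

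As a description of the selection, the members had 3225 *foxa* UMIs, with a median of 5 and a highest value of 18 per cell, and 1593 *hox11/13b* UMIs, with a median of 2 and a highest value of 11. Of the members, 65 passed with exactly 1 *foxa* UMI and 162 with exactly 1 *hox11/13b* UMI. Just outside the limits lay 189 cells with *hox11/13b* but no *foxa* UMI, 145 cells with *foxa* but no *hox11/13b* UMI, and 38 cells with *foxa* and *hox11/13b* that had exactly 1 *scl* UMI. Exactly 1 *scl* UMI was found in 4.80% of all cells with *foxa* and *hox11/13b* and in 4.78% of the remaining 12 hpf cells, and the part of free *scl* RNA in these UMIs was not tested. The *scl* count of cells with *foxa* and *hox11/13b* was spread widely, since 138 of them held at least 10 *scl* UMIs and 39 held 2 to 9.

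Cells that met the same rule were concentrated at 9 and 12 hpf. At 9 hpf, 643 of 4034 cells did so (15.9%, 14.8% to 17.1%), against 2 of 2065 cells at 6 hpf. The share was 4.32% at 16 hpf (21 of 486 cells), 1.40% at 20 hpf (43 cells), 0.785% at 24 hpf (27 cells) and 0.318% at 30 hpf (17 cells). The 9 hpf cells were deeper, with a median of 2477.5 UMIs against 1663 at 12 hpf. When every cell was thinned to 1000 UMIs and shallower cells were left out (176 of them at 9 hpf and 745 at 12 hpf), the shares were 8.45% (7.59% to 9.37%) at 9 hpf and 9.49% (8.60% to 10.4%) at 12 hpf, so the order of these 2 libraries depended on depth.

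**Figure D1:**
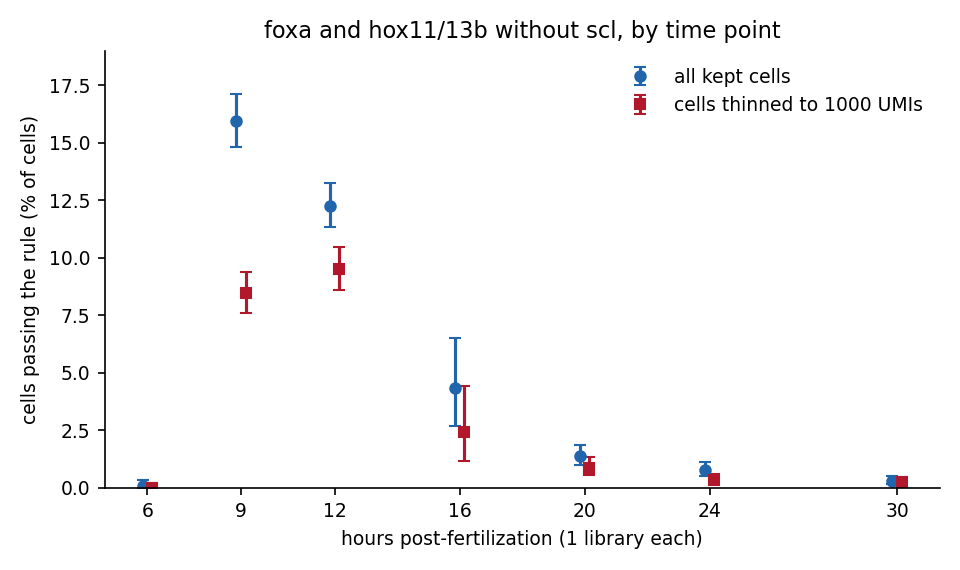
Share of cells (%) with *foxa* and *hox11/13b* UMIs and no *scl* UMI in each of the 7 libraries by hours post-fertilization, as counted (circles) and after thinning each cell to 1000 UMIs (squares), with exact 95% binomial intervals. The share is highest at 9 and 12 hpf, and the order of those 2 time points changes with thinning.

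The members carried the other markers that the study uses for early endomesoderm. *foxn2/3*, a forkhead factor of the early vegetal plate, stood at 1197 CPM (1130 to 1267) in the members and at 264 CPM in the other cells, a ratio of 4.54 (4.22 to 4.88). *wnt1*, a Wnt ligand, stood at 555 CPM (510 to 604) against 20.6 CPM, a ratio of 26.9 (22.4 to 32.5). The study names its early endomesoderm cells by these genes together with *foxa* and *hox11/13b*. It lists *foxn2/3* and *hox11/13b* for its early mesoderm cells too, so *foxn2/3* does not separate these cell types. In the 2825 cells with no UMI of the 3 rule genes, which had a median depth of 1665 UMIs, *wnt1* was found in 0.389% of the cells, against 48.4% of the members. After thinning to 1000 UMIs, which left 488 members, these shares were 0.249% and 39.5%.

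Compared with the other 12 hpf cells, 257 features were at least 2-fold higher in the members and 547 were at least 2-fold lower, of 10316 features with at least 20 UMIs in the library. These are 2.49% and 5.30% of the features tested, after adding 5 CPM to each level, and *foxa* and *hox11/13b* themselves are among the former and *scl* among the latter. The median log2 ratio over all features tested was 0.04. The comparison cells include the cells with high *scl* counts, which bears on every mesodermal gene below.

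Among the named features with at least 100 UMIs, *wnt1* had the highest ratio and *krl* the next. *krl*, a Krüppel-like zinc finger gene known in *S. purpuratus* for keeping *soxb1* low in vegetal cells, stood at 601 CPM (554 to 652) in the members and 26.0 CPM in the other cells, a ratio of 23.2 (19.6 to 27.5). It was detected in 284 members (49.2%), with up to 10 UMIs in a cell, and in 0.637% of the cells without rule genes. *soxb1*, a SoxB factor of the ectoderm, stood lower, at 561 CPM against 1089 CPM, a ratio of 0.515 (0.472 to 0.562).

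A group of cell surface and regulatory genes had a similarly steep contrast. *phd1* stood at 1052 CPM against 69.7 CPM, a ratio of 15.1 (13.5 to 16.8), and was detected in 320 members (55.5%) and in 0.602% of the cells without rule genes. *cadherin-6*, a cell adhesion gene, stood at 258 CPM against 14.6 CPM (17.7, 14.1 to 22.5). *p75ntr*, a gene of the neurotrophin receptor family, stood at 566 CPM against 50.9 CPM (11.1, 9.73 to 12.7). *evi1*, a zinc finger factor gene, stood at 968 CPM against 100.03 CPM (9.67, 8.77 to 10.7). Against the other cells with no *scl* UMI, the log2 ratio rose from 3.82 to 5.27 for *phd1* and from 3.21 to 5.08 for *evi1*. Part of the UMIs of both genes outside the members thus lay in cells with *scl*. *perld1*, a gene of GPI anchor remodelling, and the uncharacterized *hypp-2459* stood at 14.5 and 19.4 times the level of the other cells. *hypp-2459* sums 10 features that share this name. Among the features with no gene name, HER_30495.t1 stood at 712 CPM against 32.3 CPM and HER_45612.t2 at 1508 CPM against 132 CPM.

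**Figure D2:**
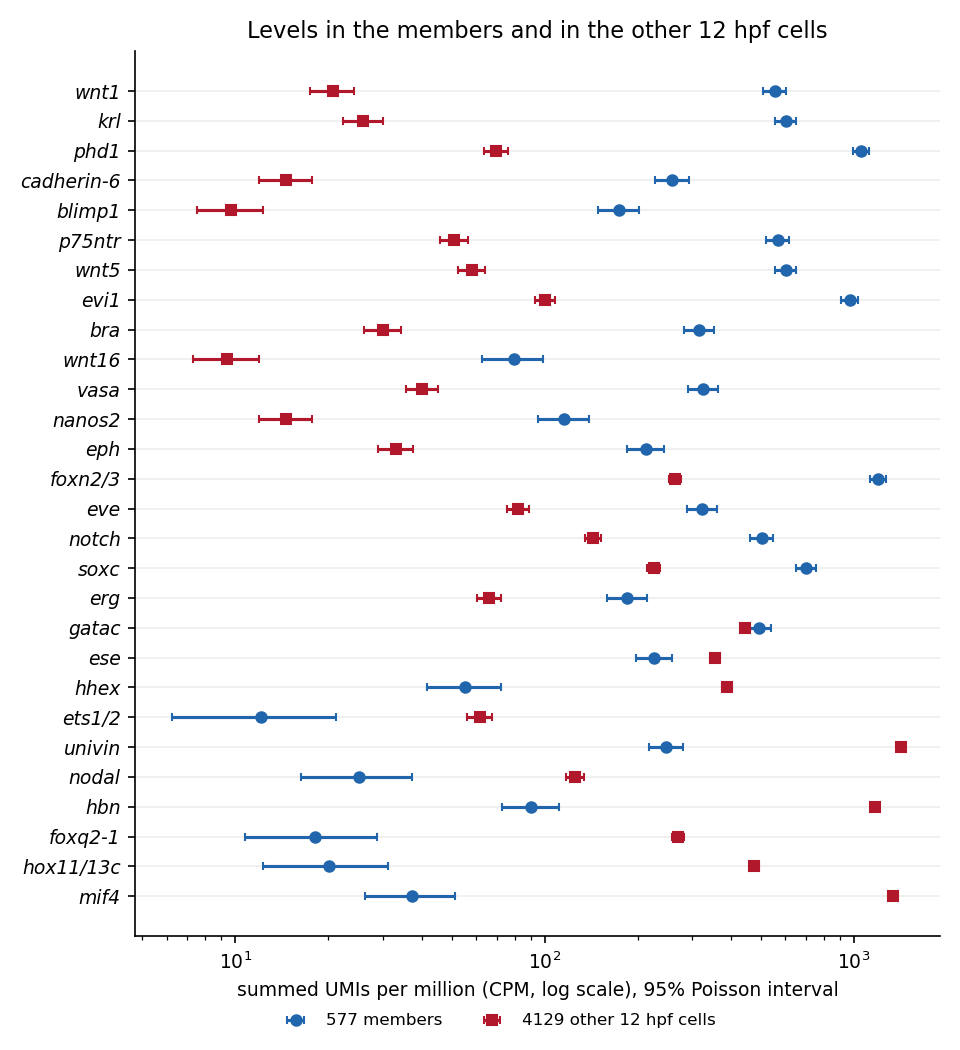
Levels of 28 genes in the 577 members (circles) and the 4129 other 12 hpf cells (squares), as CPM on a log axis with exact 95% Poisson intervals. Genes from *wnt1* down to *erg* lie higher in the members, *gatac* lies close in both groups, and genes from *ese* down lie lower, as for *hbn* at 90.5 against 1173 CPM.

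Part of the Wnt ligands were higher in the members. Of 8 Wnt ligand genes with at least 20 UMIs, 4 were at least 2-fold higher in the members and none was 2-fold lower, with a median log2 ratio of 1.30 over the list. *wnt5* stood at 601 CPM (554 to 652) against 58.1 CPM, a ratio of 10.4 (9.12 to 11.8), and was detected in 306 members (53.0%) and in 2.41% of the cells without rule genes. *wnt16* stood at 79.5 CPM (62.9 to 99.0) against 9.40 CPM, a ratio of 8.45 (6.03 to 11.9), and was detected in 65 members. The fourth, *wnt9*, rested on 16 UMIs in 2 members, of which 1 cell held 15. *wnt7* and *wnt8* were 1.74 (1.51 to 2.0) and 1.87 (1.29 to 2.65) times the level of the other cells, below the 2-fold limit, and *wnt8* was found in 39 members with at most 2 UMIs each. Of the members with *wnt1*, 64.2% (58.2% to 69.8%) also had *wnt5*, against 42.6% (36.9% to 48.4%) of those without *wnt1*, and the former were deeper, with a median of 1840 UMIs against 1387.

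Of 13 Wnt receptor and modulator genes, 2 were higher and 2 were lower, with a median log2 ratio of -0.16. *axin*, an inhibitor of the β-catenin pathway that is itself a common target of Wnt signalling, stood at 402 CPM (364 to 444) against 168 CPM, a ratio of 2.39 (2.13 to 2.68), and at a log2 ratio of 0.65 in the members with no *gatac* UMI. The receptor gene *fzd9/10* had 15 UMIs in 15 members, at 15.1 CPM against 3.93 CPM. The genes below the limit were those of the animal pole. *fzd5/8*, a Frizzled receptor of the anterior ectoderm, stood at 25.1 CPM against 216 CPM (0.117, 0.0753 to 0.173), and *sfrp1/5*, a secreted Wnt antagonist, at 134 CPM against 434 CPM (0.308, 0.257 to 0.367).

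Regulators of the endoderm were the second group that stood out. Of 15 listed genes with enough UMIs, 9 were at least 2-fold higher in the members and 1 was lower, with a median log2 ratio of 1.17. *blimp1*, a zinc finger repressor that drives the outward spread of Wnt expression in *S. purpuratus*, stood at 174 CPM (149 to 202) against 9.68 CPM, a ratio of 18.0 (13.5 to 24.1). *bra*, the Brachyury T-box factor of the blastopore, stood at 316 CPM (282 to 353) against 30.0 CPM (10.5, 8.81 to 12.6). *eve*, a homeodomain factor of the outer vegetal ring, stood at 323 CPM (289 to 360) against 81.8 CPM (3.95, 3.43 to 4.53).

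Detection of these genes was partial within the members. *bra* was found in 32.1% of the members, *eve* in 28.6% and *blimp1* in 21.7%, against 1.49%, 6.23% and 0.531% of the cells without rule genes. None of the 3 exceeded 8 UMIs in a member. Broad genes showed smaller ratios. *myc*, a growth regulator, was detected in 474 members (82.1%) and stood at 1324 CPM against 458 CPM (2.89, 2.71 to 3.09), and *otx*, a homeodomain factor that activates *blimp1* and *gatae*, stood at 742 CPM against 311 CPM (2.39, 2.19 to 2.59).

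*gatae* and *endo16*, also on this list, passed the 2-fold limit more narrowly than the genes above. *gatae*, a GATA factor of the endomesoderm, stood at 120 CPM (99.2 to 143) against 56.7 CPM, a ratio of 2.11 (1.71 to 2.6), and *endo16*, a secreted gut protein gene, at 184 CPM against 79.0 CPM (2.33, 1.96 to 2.76). In the members with no *gatac* UMI, the log2 ratios of *gatae* and *endo16* were 0.01 and 0.43, so neither passed the limit there. *hnf1-1* had 14 UMIs in 13 members. *tcf*, the DNA-binding partner of β-catenin, stood at 714 CPM in the members and 712 CPM in the other cells, a ratio of 1.00 (0.926 to 1.09). The listed gene below the limit was *z166*, whose 8 UMIs in the members lay in 1 cell, against 1114 UMIs in the other cells. The names *xlox* and *z13* were not matched.

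For mesoderm regulators, the result depended on the comparison cells. Of 20 listed genes with enough UMIs, 1 was at least 2-fold higher and 7 were at least 2-fold lower than in all other cells, with a median log2 ratio of -0.13. Against the 3159 other cells with no *scl* UMI, 9 of 17 such genes were higher and 1 (*six3*) was lower, with a median of 1.02, where 3.99% and 5.14% of 9707 features were higher and lower and the median over all was 0.05. The higher one was *erg*, an ETS factor of mesoderm, at 185.1 CPM (159 to 214) against 66.1 CPM, a ratio of 2.80 (2.35 to 3.33), detected in 142 members (24.6%) and in 0.212% of the cells without rule genes. *hhex*, a homeodomain factor of mesoderm and endoderm, stood at 55.3 CPM against 389 CPM (0.142, 0.107 to 0.186), *lmo2*, whose protein binds SCL in vertebrates, at 78.5 CPM against 319 CPM (0.246, 0.194 to 0.309), and *ets1/2*, an ETS factor, at 12.1 CPM against 61.6 CPM (0.196, 0.100 to 0.346).

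These 3 directions turned against the other cells with no *scl* UMI, where the ratios were 2.79 (1.98 to 3.90) for *hhex*, 2.17 (1.65 to 2.84) for *lmo2* and 3.8 (1.65 to 8.43) for *ets1/2*. *gcm*, with 4 UMIs in the members, turned from a log2 ratio of -1.24 to 0.24. *gatac*, whose factor acts in blood-like mesoderm of sea urchins, stood at 495 CPM (452 to 541) in the members and 445 CPM in all other cells, a ratio of 1.11 (1.01 to 1.22), but at 24.9 CPM in those with no *scl* UMI, a ratio of 19.9 (16.4 to 24.3). It was detected in 188 members (32.6%), with up to 13 UMIs, and in 0.602% of the cells without rule genes. *ese*, another ETS factor, was detected in 161 members (27.9%) and in 1.56% of the cells without rule genes. Its ratio was 0.637 (0.553 to 0.730) against all other cells and 11.7 (9.26 to 14.98) against those with no *scl* UMI. *tbr*, a T-box factor, and *erg* had ratios of 11.9 (8.01 to 17.9) and 25.4 (17.9 to 36.8) against the latter.

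Several Delta-Notch genes were higher in the members. Of 9 Delta-Notch and Hedgehog genes, 4 were at least 2-fold higher in the members and none was 2-fold lower, with a median log2 ratio of 0.72. *notch*, the receptor gene, stood at 503 CPM (460 to 549) against 143 CPM (3.51, 3.15 to 3.91), *delta*, its ligand, at 108 CPM (88.2 to 130) against 39.4 CPM (2.73, 2.16 to 3.42), and *fringe*, a glycosyltransferase that modifies Notch, at 467 CPM against 213 CPM (2.19, 1.97 to 2.43). *hesa*, a bHLH repressor of the Hes family, stood at 49.3 CPM against 20.5 CPM (2.41, 1.70 to 3.35). *suh*, the transcriptional effector of Notch, was below the limit at a ratio of 1.57. In the 389 members with no *gatac* UMI, 3 of the 4 no longer passed the limit, with log2 ratios of 0.41 for *delta*, 0.84 for *fringe* and 0.15 for *hesa*, while *notch* stood at 2.02. With at least 2 UMIs of *foxa* and of *hox11/13b* required, *hesa* stood at 0.38.

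Of 4 FGF, VEGF and ephrin genes, 2 were higher. *eph*, a receptor tyrosine kinase gene for ephrins summed over 7 features, stood at 212 CPM against 33.1 CPM (6.41, 5.30 to 7.75). *fgfr* stood at 62.4 CPM against 26.5 CPM (2.35, 1.74 to 3.15), and *ephrin* at 586 CPM against 305 CPM, a ratio of 1.92 (1.75 to 2.11) below the limit. Of 5 neural markers, 1 was higher and 1 was lower, with a median log2 ratio of -0.28. Their summed level was 2404 CPM in the members and 2317 CPM in the other cells. The higher one, *soxc*, stood at 702 CPM against 225 CPM (3.12, 2.85 to 3.41). *acsc*, a proneural bHLH gene, had no UMI in the members, which allows up to 3.02 CPM, against 27.8 CPM in the other cells.

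Of 4 germline genes with enough UMIs, 2 were higher in the members and none was lower, with a median log2 ratio of 1.53. *vasa*, an RNA helicase of the germline, stood at 326 CPM (291 to 363) against 40.3 CPM (8.09, 6.88 to 9.52), and *nanos2*, an RNA-binding repressor, at 116 CPM (95.5 to 139) against 14.6 CPM (7.93, 6.03 to 10.4). They were detected in 210 and 97 members. Of the members with *nanos2*, 52.6% (42.2% to 62.8%) also had *vasa*, against 33.1% (28.9% to 37.5%) of those without, and the former were deeper, with a median of 1969 UMIs against 1548. Both were also higher than in the cells with *foxa*, *hox11/13b* and *scl*, by 2.82 times (2.08 to 3.88) for *vasa* and 2.88 times (1.72 to 5.12) for *nanos2*. The remaining tested germline genes, *tdrd1* and *boule*, had ratios of 1.38 (1.07 to 1.76) and 1.24 (0.37 to 3.23).

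Ectodermal genes were low. All 4 animal pole domain markers were at least 2-fold lower in the members, with a median log2 ratio of -3.22. *hbn*, a homeodomain factor, stood at 90.5 CPM (72.8 to 111) against 1173 CPM (0.0771, 0.0620 to 0.0949), *foxq2-1*, a forkhead factor, at 18.1 CPM against 269 CPM (0.0672, 0.0398 to 0.107), and *six3*, a homeodomain factor, at 88.5 CPM against 505 CPM (0.175, 0.140 to 0.217). The *hbn* UMIs lay in 21 members (3.64%), with up to 21 in a cell, and 34.8% of the cells without rule genes had one. At least 1 UMI of the 4 markers was found in 12.0% of the members and 58.2% of the cells without rule genes. Their summed level was 222 CPM in the members and 2163 CPM in the other cells, and none of the 4 was at 0 in the members. The *hbn* UMIs were concentrated, since 15 members with at least 2 of the 4 markers held 80 of 90. Without these 15 cells the log2 ratios moved from -3.62 to -6.25 for *hbn*, from -3.57 to -4.47 for *foxq2-1* and from -2.87 to -4.43 for *fzd5/8*. The 15 cells were picked by these same markers and left out of the members alone, so a fall follows from the choice.

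All 5 larval ectoderm markers with enough UMIs were also at least 2-fold lower. *univin*, a TGF-β ligand of the ectoderm, stood at 247 CPM against 1414 CPM (0.175, 0.154 to 0.199), *nodal*, the ligand of the oral ectoderm, at 25.1 CPM against 126 CPM (0.200, 0.129 to 0.298), and *soxb2* at 284 CPM against 887 CPM (0.320, 0.283 to 0.360). Of 14 Nodal and BMP genes, none was 2-fold higher and 6 were lower, with a median log2 ratio of -0.85. *chordin*, a BMP antagonist, and *lefty*, a Nodal antagonist, stood at 0.0951 (0.0409 to 0.189) and 0.148 (0.0965 to 0.218) times the level of the other cells. Of 5 other ectoderm markers, 4 were lower, with a median log2 ratio of -2.05. Among them, *emx* and *onecut* stood at 0.196 and 0.222 times that level, and *irxa* had no UMI in the members.

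Pigment genes were among the lowest. *mif4*, next to *scl* the lowest named feature with at least 100 UMIs, stood at 37.2 CPM (26.2 to 51.3) in the members against 1341 CPM (0.0277, 0.0195 to 0.0383). Its 37 UMIs lay in 17 members, or 2.95%, close to the 2.19% of the cells without rule genes. *pks1*, the polyketide synthase of pigment synthesis, stood at 4.02 CPM against 97.9 CPM, and *hox11/13c* at 20.1 CPM against 476 CPM (0.0423, 0.0258 to 0.0654). Other named features of this ranking were *cryz-1*, *slc35f3l*, *pofut1l4*, *mif5*, *adra1bl-1* and *hypp-2120*, with log2 ratios from -4.26 to -3.73. Against the other cells with no *scl* UMI, these ratios were closer to 1, as for *mif4* at 0.255 (0.178 to 0.355), *hox11/13c* at 0.348 (0.210 to 0.547) and *hypp-2120* at 0.697 (0.440 to 1.06). Of the 4 pigment genes with enough UMIs, all were at least 2-fold lower, with a median log2 ratio of -3.89. Against the other cells with no *scl* UMI, all 3 with enough UMIs were lower. Against the cells without rule genes, 1 of 3 was lower (*mif4*). The summed level of the pigment list was 65.4 CPM in the members, 1931 CPM in the other cells and 176 CPM in the cells without rule genes.

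Contrast in the other lists was mixed. Of 3 skeletal and 2 blastocoelar genes with enough UMIs, none passed the limit in either direction, with median log2 ratios of -0.62 and -0.38. Summed skeletal levels were 89.5 CPM in the members, 65.0 CPM in the other cells and 7.24 CPM in cells without rule genes. Of 4 early ectoderm markers, *el1l4* was lower and none was higher, with a median of -0.34, and of 4 gut and left coelomic pouch markers, *endo16* and *hesa* were higher, with a median of 0.57. Of 11 forkhead genes other than *foxa*, *foxn2/3* was higher and *foxq2-1*, *foxg* and *foxj1* were lower, with a median log2 ratio of -0.27. The Hox genes with enough UMIs were 4 besides *hox11/13b*, of which *hox11/13c* and *hox8-1* were lower. *hox8-1* rested on 1 UMI in the members, with a ratio of 0.119 (0.00298 to 0.692), and its log2 ratio of -1.16 turned to 0.044 against the cells without rule genes. Of 14 replication and cell cycle genes, 1 was lower (*rrm1*, 0.299, 0.165 to 0.499) and none was higher, with a median log2 ratio of -0.04. None of 59 ribosomal protein genes passed the limit, with a median log2 ratio of 0.23.

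Single members combined several of the raised genes. Of 8 genes that were chosen after their values had been seen (*wnt1*, *krl*, *blimp1*, *bra*, *eve*, *wnt5*, *wnt16* and *foxn2/3*), the members had a median of 3 per cell, 237 members (41.1%) had 4 or more, and 33 (5.72%) had none. Of the 2825 cells without rule genes, 3 (0.106%) had 4 or more and 87.1% had none. Since the 8 genes were taken from those raised in the members, a contrast in this direction follows from the choice. In the cells with *foxa*, *hox11/13b* and *scl*, 10.2% had 4 or more and 7.44% had none. The shares with 4 or more were 11.7% in the cells with *foxa* alone and 6.88% in those with *hox11/13b* alone, and 31.0% and 26.5% of these had none. The members at the lower *foxa* limit stood apart from those well above it. In the 65 members with exactly 1 *foxa* UMI, *krl* stood at 227 CPM, *phd1* at 207 CPM, *soxb2* at 692 CPM and *univin* at 661 CPM. In the 313 members with at least 5 *foxa* UMIs, the levels were 707 CPM for *krl*, 1359 CPM for *phd1*, 180 CPM for *soxb2* and 130 CPM for *univin*.

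The nearest cells by the rule genes were the 215 cells with *foxa*, *hox11/13b* and *scl*, with a median depth of 1889 UMIs. Of 6180 features with at least 20 UMIs over both groups, 507 (8.20%) were at least 2-fold higher in the members than in these *scl*-positive cells and 345 (5.58%) were at least 2-fold lower, with a median log2 ratio of 0.10. *scl* itself was set by the rule. The *scl*-positive cells also enter the comparison group used above, so both comparisons share them.

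Mesoderm regulators were mostly lower in the members than in these cells. Of 15 listed genes with enough UMIs, 8 were at least 2-fold lower in the members and 1 (*id*) was higher, with a median log2 ratio of -1.22. *hhex* stood at 55.3 CPM in the members and 1367 CPM in the *scl*-positive cells, a ratio of 0.0405 (0.0301 to 0.0534), *ese* at 226 against 1649 CPM (0.137, 0.118 to 0.160), *gatac* at 495 against 2381 CPM (0.208, 0.186 to 0.232) and *tbr*, a T-box factor, at 84.5 against 338 CPM (0.250, 0.189 to 0.330). *polr2h*, named for an RNA polymerase subunit, stood at 359 against 10942 CPM (0.0328, 0.0294 to 0.0366). Pigment genes were lower too, as for *mif4* at 37.2 against 1391 CPM.

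Endoderm regulators were divided between both groups. Of 13 listed genes, 6 were at least 2-fold higher in the members (*blimp1*, *bra*, *eve*, *krl*, *tcf* and *myc*) and 3 were lower (*tgif*, *z166* and *endo16*). *krl* stood at 601 CPM against 80.3 CPM (7.49, 5.30 to 10.9), *eve* at 323 against 56.7 CPM (5.70, 3.76 to 9.02), *bra* at 316 against 66.1 CPM (4.78, 3.24 to 7.30) and *blimp1* at 174 against 40.2 CPM (4.33, 2.63 to 7.61). *endo16* was lower, at 184 against 402 CPM (0.458, 0.370 to 0.568), and *gatae*, at 120 against 243 CPM, had a ratio of 0.492 (0.375 to 0.647) that stayed inside the limit after 5 CPM were added to each level. *wnt1* (3.67, 2.83 to 4.84), *wnt5* (3.07, 2.44 to 3.91) and *notch* (2.88, 2.25 to 3.72) were higher in the members. *foxn2/3* was not, at 1197 against 1427 CPM (0.839, 0.760 to 0.927).

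The highest named features in this comparison included several with almost no UMI in the *scl*-positive cells. *r/ptp/10d*, a receptor tyrosine phosphatase gene, had 104 UMIs in the members and 1 in the *scl*-positive cells, a ratio of 44.3 with a counting interval of 7.78 to 1766. *hypp-921* had 66 UMIs against 1 (28.1, 4.87 to 1127). *rergl2*, a Ras-like gene, stood at 659 against 111 CPM (5.93, 4.41 to 8.16) and *yap1*, the coactivator of Hippo signalling, at 103 against 14.2 CPM (7.24, 3.21 to 20.2). *hbn*, *mmp14*, a membrane metalloprotease gene, and *hypp-2663* were also among them, with ratios of 12.8 (4.23 to 63.1), 9.51 (3.12 to 47.3) and 6.52 (3.45 to 13.9), of which the first and second rest on 3 UMIs in the *scl*-positive cells. Without the 15 members that held at least 2 animal pole markers, *hbn* had 10 UMIs and a ratio of 1.49 (0.383 to 8.40), while *mmp14* (8.91, 2.91 to 44.4) and *hypp-2663* (6.37, 3.37 to 13.6) moved little. The fall of *hbn* follows from the choice, since it is 1 of these markers and no *scl*-positive cells were left out. *hbn*, *mmp14* and *hypp-2663* stood lower in the members than in the other 12 hpf cells as a whole, at ratios of 0.0771, 0.584 and 0.632.

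Levels of several genes followed the *scl* count in cells with *foxa* and *hox11/13b*. *krl* stood at 601 CPM with no *scl* UMI, 295 CPM with 1, 109 CPM with 2 to 9 and 24.5 CPM with 10 or more. *wnt1* also fell, with 555, 358, 122 and 112 CPM, of which the last values lie close together. The groups with 1, 2 to 9 and 10 or more *scl* UMIs held 64313, 73585 and 285510 UMIs in all. Low levels in them therefore rest on few UMIs. *hhex* ran the other way, from 55.3 CPM with no *scl* UMI to 311, 503 and 1828 CPM, as did *gatac*, from 495 to 1120, 1305 and 2942 CPM. The 38 cells with 1 *scl* UMI thus lay between the members and the cells with high counts for these 4 genes. *foxn2/3* was highest in these 38 cells, at 1928 CPM.

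Cells with only 1 of the 2 required genes and no *scl* differed from the members in another way. In the 189 cells with *hox11/13b* alone, *eve* was higher than in the members, at 591 against 323 CPM, whereas *krl* (67.7 CPM), *wnt1* (33.8 CPM) and *foxn2/3* (209 CPM) were lower. These cells also held *soxb2* at 1006 CPM, *univin* at 1200 CPM and *emx* at 391 CPM, against 284, 247 and 42.2 CPM in the members. In the 145 cells with *foxa* alone, whose median depth was 1210 UMIs, *krl* stood at 369 CPM, *bra* at 224 CPM, *gatac* at 433 CPM and *hbn* at 438 CPM. The cells with *hox11/13b* alone had a median depth of 1686 UMIs, against 1587 in the members. Missed UMIs of the absent gene and real absence cannot be told apart in either group.

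**Figure D3:**
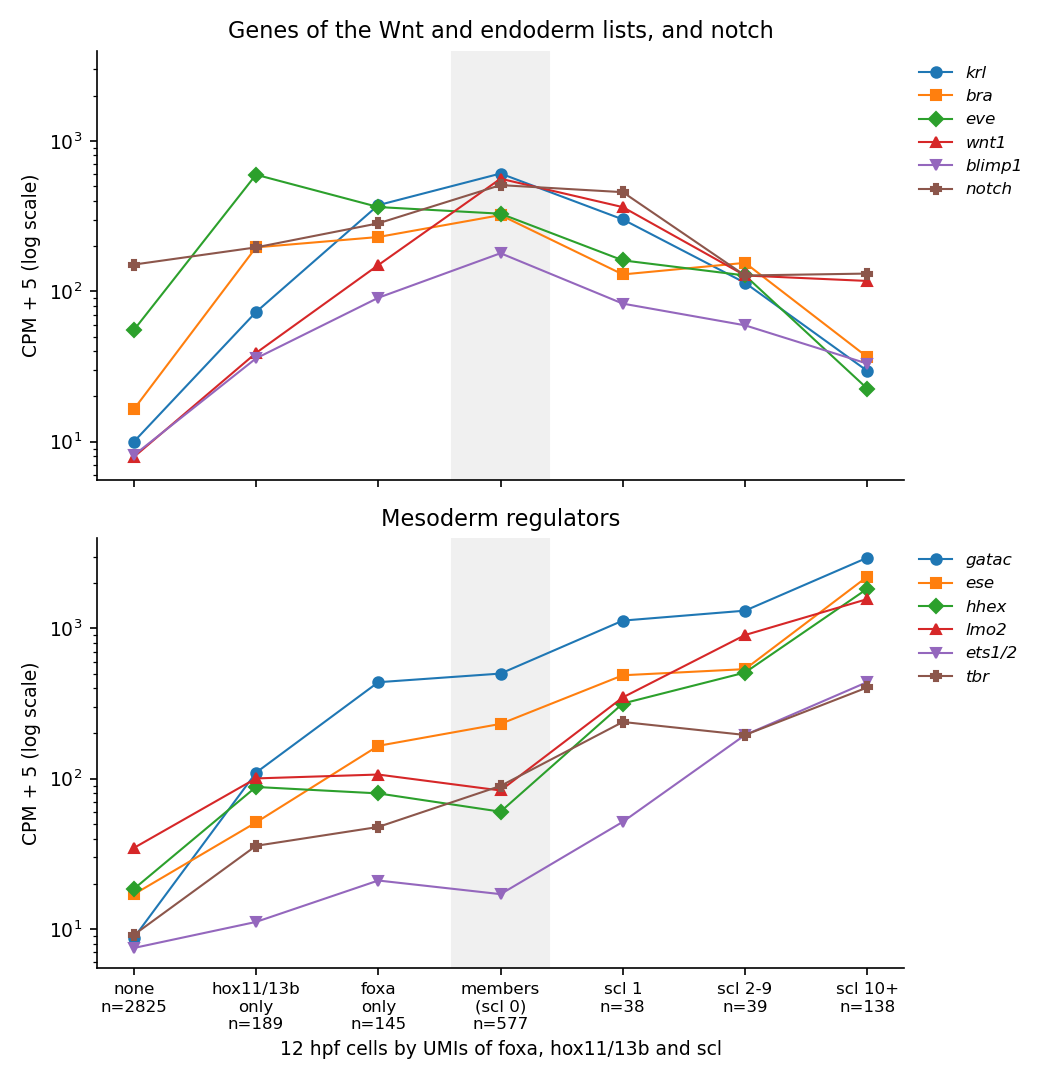
Levels (CPM + 5, log axis) of 6 Wnt, endoderm and Notch genes (top) and 6 mesoderm regulators (bottom) in 12 hpf cells grouped by UMIs of *foxa*, *hox11/13b* and *scl*, with the members shaded and the cell number under each group. Lines join the values of a gene and carry no order for the first 3 groups. No error bars are drawn. *krl* runs from 601 CPM in the members to 24.5 CPM at 10 or more *scl* UMIs, while *hhex* runs from 55.3 to 1828 CPM, and *eve* is highest in cells with *hox11/13b* alone.

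The members were not uniform. To describe this, they were divided by *gatac*, a division chosen after its values had been seen. A *gatac* UMI was found in 188 members, with a median depth of 1764 UMIs, and in none of the other 389, with a median depth of 1520 UMIs. *foxa* stood at 3347 CPM in the former and 3188 CPM in the latter, and *hox11/13b* at 1615 and 1595 CPM, so the genes of the rule did not follow this division. Of 5231 features with at least 20 UMIs in the members, 179 (3.42%) were at least 2-fold higher in the *gatac*-positive members and 210 (4.01%) were at least 2-fold lower.

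Part of the mesodermal regulators were higher in the *gatac*-positive members. Of 13 listed genes with enough UMIs, 5 were at least 2-fold higher (*gatac*, *hhex*, *six3*, *tbr* and *lmo2*) and 1 (*id*) was lower. *gatac* itself was set by the division. *tbr* stood at 198 CPM in the *gatac*-positive members and 23.2 CPM in the *gatac*-negative members, a ratio of 8.52 (4.82 to 16.0), *hhex* at 120 against 20.1 CPM (5.98, 3.15 to 12.1) and *lmo2* at 152 against 38.7 CPM (3.93, 2.40 to 6.59). Outside this list, *delta* stood at 207 against 54.2 CPM (3.81, 2.51 to 5.88), *gatae* at 235 against 57.3 CPM (4.10, 2.75 to 6.22) and *endo16* at 324 against 108 CPM (2.99, 2.20 to 4.09). *evi1* (2.59, 2.27 to 2.95) and *axin* (2.43, 1.98 to 2.98) were also higher, and *erg* (1.89) and *ese* (1.54) stayed below 2-fold. Among the highest named features were *chst1*, a carbohydrate sulfotransferase gene, at 749 against 150 CPM, *cycpln* at 2690 against 589 CPM and *col18a1lf* at 295 against 60.4 CPM.

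Endoderm regulators were divided. Of 12 with enough UMIs, 3 were at least 2-fold lower in the *gatac*-positive members (*blimp1*, *bra* and *eve*) and 2 were higher (*gatae* and *endo16*). Of 5 Wnt ligands, 1 was lower (*wnt5*) and none was higher. *eve* stood at 34.4 CPM in the *gatac*-positive members and 479 CPM in the *gatac*-negative ones, a ratio of 0.0719 (0.0368 to 0.127), and *bra* at 91.8 against 437 CPM (0.210, 0.141 to 0.303). *blimp1* (0.358, 0.230 to 0.539), *wnt5* (0.390, 0.312 to 0.482), *ephrin* (0.290, 0.226 to 0.369), *yap1* (0.179, 0.0794 to 0.355) and *crim1*, a gene of a BMP-binding membrane protein in vertebrates (0.140, 0.0657 to 0.266), were also lower in the *gatac*-positive members. *wnt1* and *krl* were less uneven, with ratios of 0.594 (0.485 to 0.723) and 0.706 (0.586 to 0.846). *slc6a13*, *kndc1*, *hypp-2673* and *proml1a* completed the 8 lowest named features, with ratios from 0.154 to 0.190.

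The same division was visible in single cells. *eve* was detected in 12 of 188 *gatac*-positive members (6.38%, 3.34% to 10.9%) and in 153 of 389 *gatac*-negative members (39.3%, 34.4% to 44.4%), although the former were deeper. *bra* was detected in 15.4% (10.6% to 21.4%) and 40.1% (35.2% to 45.2%) of them, and *tbr* in 26.6% (20.4% to 33.5%) and 3.86% (2.17% to 6.28%). *bra* and *eve* in turn occurred together. Of the members with *bra*, 49.7% (42.3% to 57.2%) had *eve*, against 18.6% (14.9% to 22.8%) of the 392 without *bra*, at median depths of 1774 and 1508 UMIs. In the 64 members with at least 3 *gatac* UMIs, *eve* stood at 7.75 CPM and *bra* at 31.0 CPM.

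**Figure D4:**
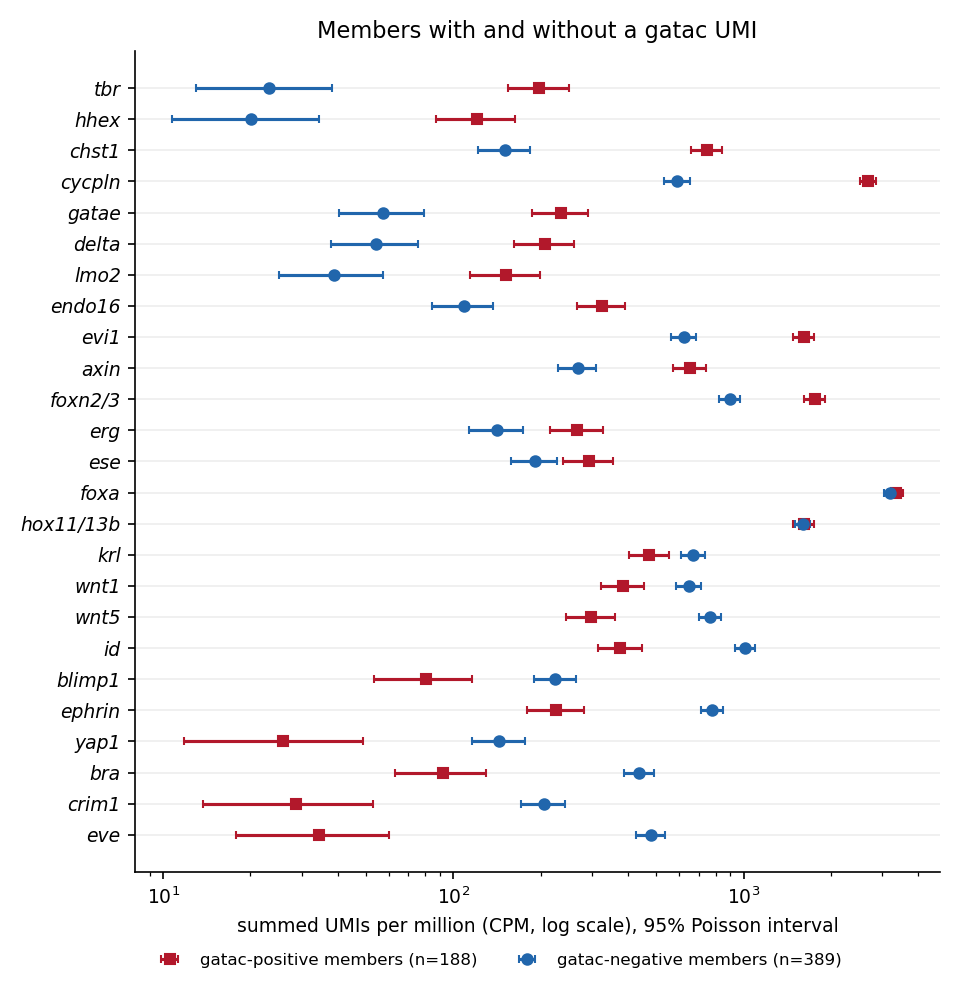
Levels of 25 genes in the 188 members with a *gatac* UMI (squares) and the 389 without (circles), as CPM on a log axis with exact 95% Poisson intervals. *foxa* and *hox11/13b* lie together in the middle, genes from *tbr* to *ese* lie higher in the *gatac*-positive members, and genes from *krl* to *eve* lie lower, with *eve* at 34.4 against 479 CPM.

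The 9 hpf library, which the rule for the members did not use, gave a second set of values. In it, 202 of 11219 features (1.80%) were at least 2-fold higher in the 643 cells that met the rule than in the other 9 hpf cells, and 254 (2.26%) were at least 2-fold lower. Of the 255 features other than the rule genes that were higher at 12 hpf, 243 had enough UMIs at 9 hpf, and 62 of them (25.5%) were higher there too, against 1.87% of all 10058 features tested at both times. Of the 507 features that were lower at 12 hpf and tested at 9 hpf, 125 (24.7%) were lower at 9 hpf, against 2.43% of all, and 40 (7.89%) were higher.

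Several genes that were high in the members were also high at 9 hpf. *wnt1* stood at 1054 CPM in the 9 hpf cells that met the rule and 109 CPM in the others, a ratio of 9.70 (8.97 to 10.5), *wnt5* at 553 against 53.7 CPM (10.3, 9.23 to 11.5), *blimp1* at 150 against 21.0 CPM (7.13, 5.90 to 8.63) and *eve* at 720 against 119 CPM (6.06, 5.58 to 6.57). Against these 9 hpf cells, the 12 hpf members had less *wnt1* (0.527, 0.478 to 0.579), less *eve* (0.448, 0.396 to 0.507) and about the same *wnt5* (1.09, 0.981 to 1.20) and *krl* (0.965, 0.872 to 1.07). *wnt8* stood at 174 CPM at 9 hpf and 41.2 CPM at 12 hpf in cells that met the rule. Each of these time comparisons sets 1 library against 1 other.

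Other genes were at low levels at 9 hpf. *gatac* had 1 UMI in the 643 cells and 492 in the members, at 0.540 and 495 CPM, a ratio of 917 with a counting interval of 164 to 36277. *perld1* stood at 9.18 CPM at 9 hpf and 530 CPM at 12 hpf (57.8, 35.7 to 99.9), *evi1* at 20.0 and 968 CPM (48.4, 34.9 to 69.2), *endo16* at 6.48 and 184 CPM (28.4, 15.9 to 56.0) and *bra* at 22.1 and 316 CPM (14.3, 10.3 to 20.3). *notch* stood at 147 CPM in the 9 hpf cells that met the rule and 155 CPM in the other 9 hpf cells, a ratio of 0.948 (0.830 to 1.08), where the members at 12 hpf had a ratio of 3.51.

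The ratios of several mesodermal genes were above 1 at 9 hpf and below 1 in the members, against all other cells of each library. *gcm*, a factor of pigment cell specification, stood at 78.3 against 9.64 CPM at 9 hpf (8.12, 6.17 to 10.7) and at 4.02 against 16.3 CPM at 12 hpf (0.247, 0.0662 to 0.650). *ese* had a ratio of 5.52 (5.0 to 6.10) at 9 hpf and 0.637 (0.553 to 0.730) at 12 hpf, and *dkk1*, a secreted Wnt antagonist, 5.75 (5.29 to 6.24) and 0.514 (0.450 to 0.586). *scl* was found in 123 of 4034 cells at 9 hpf and in 970 of 4706 at 12 hpf. The part of the *scl* exclusion in these ratios was not tested. Against 12 hpf cells with no *scl* UMI, *ese* had a ratio of 11.7 and *gcm* of 1.54 (0.368 to 4.89). Animal pole genes were low at both times, as for *six3* with ratios of 0.0420 (0.0338 to 0.0516) at 9 hpf and 0.175 at 12 hpf.

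**Figure D5:**
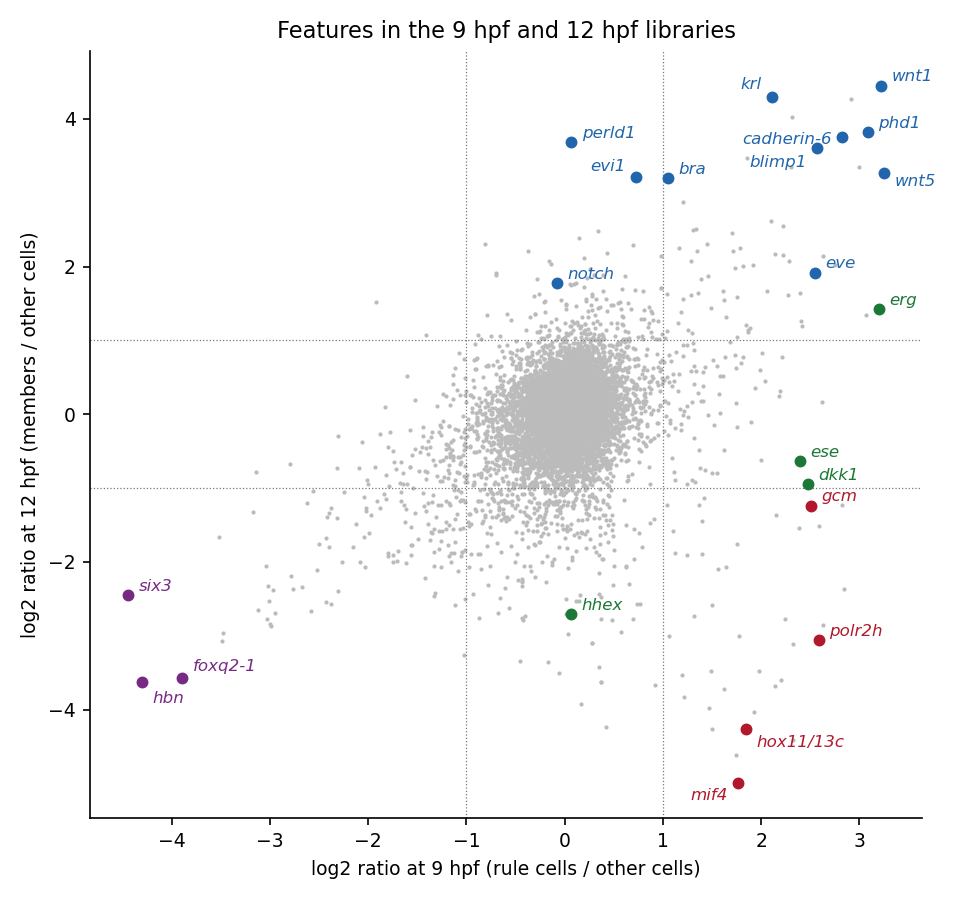
Log2 ratio of each of the 10058 features tested at both times between cells that met the rule and all other cells, at 9 hpf (x axis) and 12 hpf (y axis), after adding 5 CPM, without the 3 rule genes. Dotted lines mark 2-fold. *wnt1*, *wnt5*, *krl* and *blimp1* lie high at both times, *perld1* and *evi1* at 12 hpf alone, animal pole genes low at both, and *gcm*, *mif4*, *hox11/13c* and *polr2h* high at 9 hpf and low at 12 hpf.

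Later libraries held too few such cells for more than single values. In the 43 cells that met the rule at 20 hpf, *hnf1-1* had 78 UMIs, at 1095 CPM (866 to 1367) against 28.8 CPM in the other 20 hpf cells, where the members at 12 hpf had 14.1 CPM. *wnt1* stood at 477 CPM (331 to 667), *bra* at 351 CPM (227 to 518), *eve* at 351 CPM and *endo16* at 604 CPM (437 to 813) in these 43 cells. *krl* had 4 UMIs there, and *erg*, *delta* and *nanos2* had none, which allows a level of up to 42.1 CPM each.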

How the data were processed

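The authors deposited, for each of the 7 *He* libraries (10x Genomics 3′ chemistry), the raw count matrix of UMIs per feature and cell made with Cell Ranger 3.1.0 by the submitters' processing notes, without normalization. The genome build is not given in the sources used here. Barcodes were retained between 200 and 4000 genes and below 10000 UMIs, which left all 4706 barcodes at 12 hpf (8121845 UMIs). Counts of the 38707 features were summed by name as the files give it. Copies and paralogues that share a name or sequence cannot be told apart. Doublets were not called and were kept.

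UMIs were summed per group of cells and scaled to CPM in Python 3.11.15 (scipy 1.17.1, numpy 2.4.6). Features with at least 20 UMIs were called at a 2-fold difference after adding 5 CPM. Shares have Clopper-Pearson intervals, sums Poisson intervals and ratios exact conditional intervals, all at 95%. A count of 0 was given the limit of 3 UMIs. The steps were tested on simulated data. The plotting library was matplotlib 3.10.9.

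Named genes come from the gene lists, from the 15 highest and 10 lowest named features with at least 100 UMIs against the other cells, and from the 8 highest and 8 lowest with at least 50 UMIs against the *scl*-positive cells. The *gatac* division and its 8 highest and lowest features were added after the values had been seen. A feature of the lowest ranks is not reported here. The members and the lists were chosen with earlier results of these data known. Alternatives covered the cell filter, depth, the UMI minimum, the pseudocount, the feature filter, the mean over cells, the comparison cells and members with animal pole markers. The list counts against cells with no *scl* UMI were added after the values had been seen.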

Additional observations from a re-analysis of the deposited data

Results flagged for a closer look

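Of 10058 features tested at both times, 42 were at least 2-fold apart in opposite directions at 9 and 12 hpf, and 40 of these were higher at 9 hpf and lower at 12 hpf in the cells that met the rule. Among the genes named here, 8 did so. Their log2 ratios at 9 and 12 hpf were 1.77 and -4.99 for *mif4*, 1.5 and -4.26 for *cryz-1*, 1.85 and -4.26 for *hox11/13c*, 1.93 and -4.04 for *pofut1l4*, 1.47 and -3.98 for *mif5*, 1.62 and -3.73 for *hypp-2120*, 2.58 and -3.06 for *polr2h*, and 2.51 and -1.24 for *gcm*. The size of the 12 hpf values depended on *scl*-positive cells in the comparison group. With these cells left out, *mif4*, *cryz-1*, *hox11/13c*, *pofut1l4* and *mif5* stayed at least 2-fold lower, and *hypp-2120*, *polr2h* and *gcm* did not. Against the other 12 hpf cells with no *scl* UMI, the log2 ratios were -1.84 for *mif4*, -1.04 for *cryz-1*, -1.32 for *hox11/13c*, -1.15 for *pofut1l4*, -1.03 for *mif5*, -0.45 for *hypp-2120*, 0.76 for *polr2h* and 0.24 for *gcm*. Against the cells with no UMI of the 3 rule genes, only *mif4* stayed at least 2-fold lower, at -1.55. *cryz-1* (-0.74), *hox11/13c* (-0.92), *pofut1l4* (-0.86), *mif5* (-0.86), *hypp-2120* (-0.14) and *gcm* (0.35) lay inside the limit there. *polr2h* was at least 2-fold higher, at 1.15. With 1 library per time point, the difference between the time points was not tested.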

How the results depend on the processing

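The number of members was 376 after thinning to 1000 UMIs and 374 with at least 2 UMIs of *foxa* and of *hox11/13b*, and lay between 526 and 615 under the other alternatives, of which the limit of 1 *scl* UMI was chosen after seeing the data. With pseudocounts of 1 and 20 CPM in place of 5, 461 and 131 features were 2-fold higher and 997 and 274 were 2-fold lower than in the other cells. Against only the cells with no UMI of *foxa*, *hox11/13b* or *scl*, 427 were higher, and against the other cells with no *scl* UMI, 387. With 20 CPM, 234 features were higher and 217 lower than in the *scl*-positive cells. All other alternatives gave counts within 1.5 times those reported. Of 70 followed genes past the 2-fold limit, 13 lost it with 20 CPM, among them *hnf1-1*, *gatae*, *wnt9*, *fzd9/10*, *hesa* and *fgfr*. Thinning lost 3 (*gatae*, *fzd9/10* and *foxj1*), the minimum of 2 UMIs 3 (*fzd9/10*, *hesa* and *foxj1*) and the mean over cells 1 (*gcm*). Against cells with no UMI of the 3 rule genes 16 lost it, and against other cells with no *scl* UMI 11. Of the 75 genes followed, 7 changed sign against cells with no UMI of the 3 rule genes, with log2 ratios of 3.77 for *ese*, -0.22 for *tcf*, 1.71 for *hhex*, 1.19 for *ets1/2*, 1.27 for *lmo2*, 0.35 for *gcm* and 0.044 for *hox8-1*. Against other cells with no *scl* UMI, 6 did, at 3.25 for *ese*, -0.19 for *tcf*, 1.28 for *hhex*, 1.06 for *ets1/2*, 1.02 for *lmo2* and 0.24 for *gcm*. In members without *gatac*, an alternative added after seeing the data, *gatac* itself and *tbr* changed sign, the latter to -1.06, and 8 genes lost the 2-fold limit (*endo16*, *gatae*, *wnt9*, *axin*, *delta*, *fringe*, *hesa* and *foxj1*). *tcf*, at 0.004, also changed sign under 3 further alternatives, and no gene did under the remaining 4. No paired analysis was possible because each time point has 1 library.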
